A study of Mus musculus with 12 samples.

Results

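The genes described here carry the unfolded protein response, the signalling that starts when misfolded proteins collect in the endoplasmic reticulum (ER). They are 10 genes: the ER stress sensors Ern1 (IRE1α), Eif2ak3 (PERK), Atf6 and Atf6b, the transcription factor Xbp1, the membrane-bound factors Creb3l1, Creb3l2 and Creb3l3, and the proteases Mbtps1 (site-1 protease) and Mbtps2 (site-2 protease). They were chosen by name for their place in the pathway, with earlier results of these data known. The level of a gene in a liver is the sum of the FPKM (fragments scaled to transcript length and library size) of all transcripts that carry its symbol. All 10 were present, out of 24296 gene symbols, and they hold 43 of the 169430 transcripts in the table.

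RNA sequencing of mouse liver, covering mRNA and lncRNA, was used to follow liver fibrosis and its treatment with phloridzin, a plant flavonoid, beside silibinin, a milk thistle compound that served as the reference treatment. The animals were male C57/BL6N mice by the study's methods, which give their weight and not their age. There were 12 liver samples in 4 groups of 3, each sample called a liver in what follows. Nothing in the labels says that each came from its own mouse, so the p-values measure the spread between these samples, part of which may be technical. The control group carries the label WT and received no carbon tetrachloride (CCl4), and no vehicle injection is stated for it. In the model group, CCl4 in olive oil was injected into the peritoneum over 8 weeks, at 5 mL/kg and 2 times in each week. Silibinin livers and phloridzin livers come from animals given the same CCl4 and, from week 5, the drug, phloridzin at the highest of its doses in the study. Fibrosis is therefore compared with no CCl4, and each drug with CCl4 alone, with the drug given while CCl4 went on.

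Depth was read from the step between low FPKM values, since the table holds no counts. It came to 105.2, 108.4 and 109.6 M (mega) fragments in the control livers, 83.7, 101.5 and 100.1 M in the model livers, 106.7, 110.8 and 110.1 M in the silibinin livers, and 102.2, 104.8 and 98.5 M in the phloridzin livers. At these depths 98.4% to 98.6% of the low values of a liver were whole fragment numbers within 0.05. The shallowest library was model replicate 1. Of the hepatocyte markers, 9 of 10 were matched in the table, none was at 0 in any liver, and Alb was the most abundant. Their summed level ran from 18265 to 36112 FPKM, as the liver label requires.

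In the unfolded protein response, IRE1α cuts an intron out of the Xbp1 mRNA in the cytoplasm, PERK phosphorylates the translation factor eIF2α, and ATF6 travels to the Golgi, where site-1 and site-2 proteases release its active fragment. The freed factors switch on chaperones, ER-associated degradation and, on the PERK branch, ATF4 and CHOP. Hepatocytes secrete large amounts of protein and keep this machinery active, and they express CREB3L3 (CREBH), a relative of ATF6 that acts on lipid and acute-phase genes.

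The members differed widely in level, compared here in FPKM, which corrects for transcript length. In the control livers the group means ran from Creb3l3 (108 FPKM) through Xbp1 (29.2), Mbtps1 (11.3), Atf6b (7.54), Eif2ak3 (5.04), Ern1 (3.88), Mbtps2 (2.87), Creb3l2 (1.89) and Atf6 (1.19) to Creb3l1 (0.165). Among neighbours in that order, the ranges of the control livers overlapped for Eif2ak3 and Ern1 and for Creb3l2 and Atf6, so those pairs were not ordered beyond their spread. The sums leave out NONCODE transcripts inside exons, which carry no gene symbol. With these added, the control livers had 7.97, 9.07 and 8.18 FPKM for Creb3l2 and 1.82, 10.6 and 5.22 FPKM for Atf6. The places of Creb3l2 and Atf6 in the order thus depend on the transcripts summed. In the model livers Creb3l3 (67.9 FPKM) and Xbp1 (47.1 FPKM) overlapped, and Eif2ak3 (15.3 FPKM) stood above Atf6b (13.6 FPKM) in mean with overlapping ranges.

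A gene was tested where its mean over the 12 livers was at least 0.5 FPKM, which 9 of the 10 members and 13158 genes in all passed; Creb3l1 did not. Differences were tested with limma on log2(FPKM + 1), with all 12 livers in 1 fit and Benjamini-Hochberg adjustment over all genes tested. A log2 fold change on that scale understates the change of a low gene. A gene is called where its adjusted p is under 0.05 and its log2 fold change is above 1 or below -1, the fold limit that the study used for DE genes.

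In model against control livers, 4 members were called higher (Ern1, Atf6, Eif2ak3 and Creb3l2) out of 9 tested, beside 9.42% of all genes tested. At adjusted p under 0.05 alone, 5 members were higher, Atf6b being the added one, beside 31.1% of all genes. At the same limit 1 member, Creb3l3, was lower, beside 3.8% of all genes. The median log2 fold change was 0.77 over the 9 members and 0.34 over all genes tested, so the whole table was shifted upwards in the model livers. Relative to that shift of 0.34, the log2 changes were 1.11 for Eif2ak3, 0.94 for Atf6, 0.90 for Creb3l2, 0.83 for Ern1, 0.43 for Atf6b and -1.002 for Creb3l3. Xbp1 at 0.24, Mbtps1 at 0.20 and Mbtps2 at -0.20 lay near the shift.

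For silibinin against the model, 2 members were called lower (Atf6 and Eif2ak3), beside 3.25% of all genes. At adjusted p under 0.05 alone, 5 were lower (Ern1, Atf6, Atf6b, Eif2ak3 and Creb3l2), beside 11.4%, and 1 was higher (Creb3l3), beside 2.62%. The member median was -0.78 and that of all genes -0.15. For phloridzin against the model, 3 members were called lower (Ern1, Atf6 and Eif2ak3), beside 2.92% of all genes. At adjusted p under 0.05 alone, 5 were lower, beside 10.4%, and 1 was higher, beside 2.5%, and the members were those of the silibinin comparison. The member median was -0.79 and that of all genes -0.11. All 3 comparisons use the model livers, so they are not independent of each other.

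**Figure D1:**
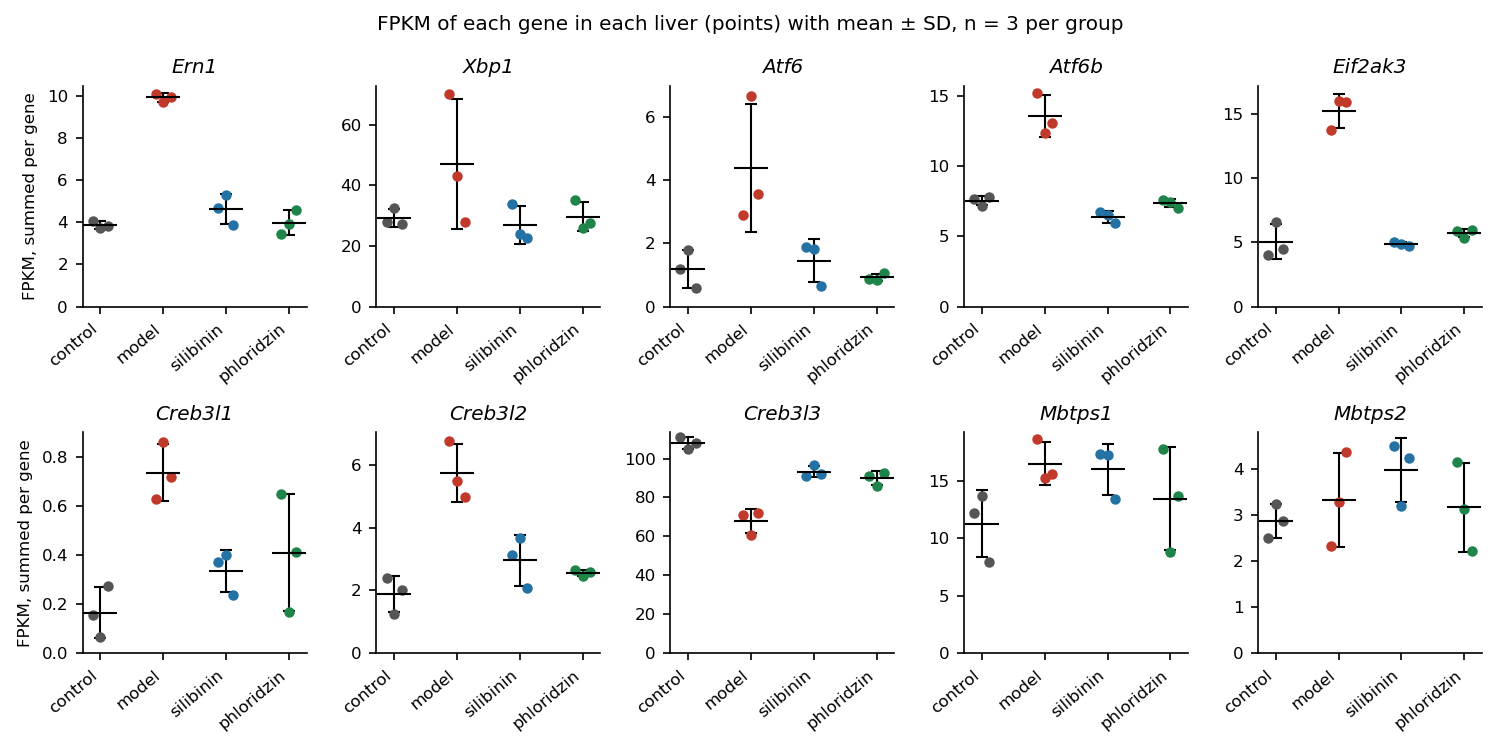
FPKM of each of the 10 genes (vertical axis, summed per gene symbol) in each liver (points), with the group mean and SD as bars, for the control, model, silibinin and phloridzin groups (3 livers each). The model livers stand above all others for Ern1, Atf6, Atf6b, Eif2ak3 and Creb3l2 and below all others for Creb3l3.

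Scaling mattered for the size of these changes. Median ratio scaling of the livers, with size factors of 0.82 to 0.885 in the control livers and 1.15 to 1.19 in the model livers, took the median of all genes from 0.34 to 0.01 in model against control livers. Of all calls in that comparison, 89.7% were higher without this scaling and 53.7% with it. Under the scaling 2 members were called, Eif2ak3 as higher at 1.05 (adjusted p = 0.00112, limma with Benjamini-Hochberg adjustment) and Creb3l3 as lower at -1.11 (adjusted p = 0.000202). Of all 13086 genes tested under it, 526 were called higher and 453 lower. Ern1 at 0.78, Atf6 at 0.98, Creb3l2 at 0.90 and Atf6b at 0.36 kept adjusted p under 0.05 and fell short of the fold limit. Mbtps2 changed sign, from 0.14 to -0.20, without passing the test under either. The split moved in the same way in the drug comparisons: 18.6% of calls were higher with silibinin compared with the model and 44.0% under the scaling, and 17.1% and 36.9% with phloridzin. Among the members, the scaling left 1 called with silibinin (Eif2ak3, without Atf6 at -0.95) and 2 with phloridzin (Atf6 and Eif2ak3, without Ern1 at -0.97). Of all 13086 genes, 241 were called lower with silibinin and 239 with phloridzin.

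Ern1 encodes IRE1α, the kinase and endoribonuclease that splices Xbp1 mRNA (chr11:106394650-106487852, minus strand, mm10, also called GRCm38). Its level was 4.07, 3.74 and 3.82 FPKM in the control livers, 10.1, 9.70 and 9.97 in the model livers, 4.66, 5.31 and 3.89 in the silibinin livers, and 3.43, 3.90 and 4.60 in the phloridzin livers. All 3 model livers were above the other 9, with a narrow spread, and the other groups overlapped. Ern1 rose in the model group from 3.88 ± 0.176 to 9.93 ± 0.206 FPKM (SD, n = 3), a log2 fold change of 1.16 (SE 0.13, adjusted p = 0.000201, limma with Benjamini-Hochberg adjustment). It fell with silibinin to 4.62 ± 0.710 FPKM, by -0.97 (adjusted p = 0.00108, limma), just short of the fold limit, and with phloridzin to 3.98 ± 0.593 FPKM, by -1.14 (adjusted p = 0.000396, limma), a call that was lost under median ratio scaling (-0.97). The call with silibinin was made when silibinin replicate 2 was left out (-1.05). The order of group means was control, phloridzin, silibinin and model, and the first 3 did not differ beyond their spread.

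Ern1 has 5 transcripts in the table, and 3 protein-coding ones carried nearly all of its level. Ern1-201 averaged 1.73 FPKM in the control and 3.98 FPKM in the model group, another coding transcript 1.32 and 4.02 FPKM, and Ern1-203 0.728 and 1.85 FPKM. The ranges of Ern1-201 and that other transcript overlapped in the model livers. In a limma fit over 50485 transcripts, that other transcript rose by 1.13 on the log2 scale (SE 0.25, adjusted p = 0.0172), whereas Ern1-201 gave 0.87 with an adjusted p of 0.0560. With Ern1-201 alone in place of the sum, since it has the highest mean over the 12 livers, Ern1 was no longer called in model against control livers (0.87, adjusted p = 0.0442, limma) or with phloridzin (-1.01, adjusted p = 0.0503, limma).

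Xbp1 encodes the transcription factor made from the spliced mRNA (chr11:5520659-5525893, plus strand). Its level was 27.8, 32.5 and 27.2 FPKM in the control livers, 70.3, 43.1 and 27.9 in the model livers, 34.0, 24.1 and 22.7 in the silibinin livers, and 35.0, 26.0 and 27.7 in the phloridzin livers. Model replicate 1 was the highest of all livers and model replicate 2 the next, while model replicate 3 lay inside the control range. The model mean of 47.1 ± 21.5 FPKM did not differ from the control mean of 29.2 ± 2.93 FPKM beyond this spread (log2 fold change 0.58, 95% confidence interval -0.05 to 1.21, adjusted p = 0.136, limma). Against the model group the change was -0.71 with silibinin (adjusted p = 0.124, limma) and -0.57 with phloridzin (adjusted p = 0.225, limma). Without model replicate 3, Xbp1 was called lower with silibinin (-1.03, adjusted p = 0.0280, limma), so that liver decides the call.

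Total Xbp1 FPKM does not measure splicing by IRE1α. The table has 4 Xbp1 transcripts, and 3 of them hold the 26-base intron that IRE1α removes, at positions 818-843 of the 2129 bases of Xbp1-201, 276-301 of Xbp1-203 and 536-561 of Xbp1-204. The remaining Xbp1 transcript is annotated as a retained intron, so none of the 4 stands for the spliced mRNA. Transcripts without a gene symbol were not searched for the spliced sequence. The unspliced sequence is shown because splicing by IRE1α would remove its middle part, with the 26 bases in capitals and 15 bases of exon on each side, read from the GENCODE transcript:
Xbp1-201: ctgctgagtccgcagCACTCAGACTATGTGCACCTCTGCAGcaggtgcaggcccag
The spliced and the unspliced form cannot be told apart in these values.

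The shares of the transcripts in the Xbp1 sum were compared as well. Xbp1-201, the full-length coding transcript, held 48.6%, 40.4% and 38.7% of Xbp1 FPKM in the control livers, 33.8%, 30.1% and 25.1% in the model livers, 33.3%, 42.2% and 41.3% in the silibinin livers, and 54.0%, 56.2% and 44.7% in the phloridzin livers. The model shares were all below the control shares and the phloridzin shares all above the silibinin shares, and silibinin replicate 1 lay inside the model range. The mean share differed by -12.95 percentage points between the model and the control group, with p = 0.1 by a two-sided exact permutation test, the smallest p that 3 livers against 3 allow. Compared with the model group, the share was 9.30 points higher with silibinin (exact permutation p = 0.2) and 22.0 points higher with phloridzin (exact permutation p = 0.1), and phloridzin exceeded silibinin by 12.7 points (exact permutation p = 0.1). None of these can reach 0.05 in this design, and the shares of the 3 other transcripts gave exact permutation p of 0.2 to 0.5 in model against control livers. Compared with the model group, the share of Xbp1-203 differed by -4.06 points with silibinin and by -6.41 points with phloridzin, and that of Xbp1-204 by -6.23 points with phloridzin, each with an exact permutation p of 0.1. In FPKM, Xbp1-201 averaged 12.4 in the control, 14.6 in the model, 10.3 in the silibinin and 15.3 in the phloridzin group, while the retained-intron transcript averaged 8.43, 15.4, 6.86 and 7.42.

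**Figure D2:**
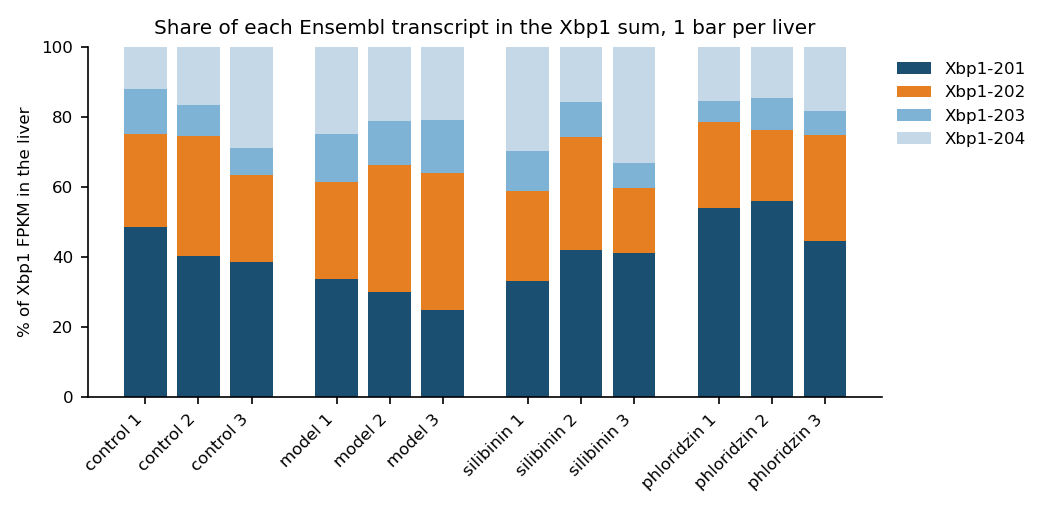
Share of each of the 4 Xbp1 transcripts in the Xbp1 FPKM of a liver (vertical axis, percent), with 1 stacked bar per liver. Xbp1-201 takes 25.1% to 33.8% of the sum in the model livers and 44.7% to 56.2% in the phloridzin livers.

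Atf6 encodes ATF6α, the sensor whose cleaved form binds ER stress response elements (chr1:170704674-170867771, minus strand). Its level was 1.18, 1.81 and 0.586 FPKM in the control livers, 2.89, 6.69 and 3.58 in the model livers, 1.88, 1.82 and 0.665 in the silibinin livers, and 0.872, 0.838 and 1.06 in the phloridzin livers. The model livers were all above the rest, and model replicate 2 was far above the other model livers. Atf6 rose from 1.19 ± 0.610 to 4.39 ± 2.02 FPKM in the model group (log2 fold change 1.27, SE 0.30, adjusted p = 0.00854, limma), and fell with silibinin by -1.11 (adjusted p = 0.0326, limma) and with phloridzin by -1.42 (adjusted p = 0.0121, limma). The 3 other groups overlapped, in the order phloridzin, control, silibinin.

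The calls of Atf6 were the least firm of those made. Without model replicate 2, Atf6 gave 0.99 in model against control livers (adjusted p = 0.0300, limma) and -0.82 with silibinin (adjusted p = 0.109, limma), both outside the call. The call with silibinin was also lost without model replicate 3 (adjusted p = 0.0554, limma), silibinin replicate 1 (0.0502) or silibinin replicate 3 (0.113). Limma-voom on the recovered fragments gave 2.01 in model against control livers with an adjusted p of 0.0608, and -2.25 with phloridzin with an adjusted p of 0.0909. With protein-coding transcripts alone, Atf6 was called in none of the 3 comparisons (adjusted p = 0.166 with phloridzin, limma). Atf6-201, the coding transcript, averaged 0.660 ± 0.637 FPKM in the control and 2.69 ± 2.45 FPKM in the model group and was not called (0.99, adjusted p = 0.190, limma over transcripts). The other Atf6 transcript, annotated as a retained intron, averaged 0.530 and 1.69 FPKM and rose by 0.80 (SE 0.17, adjusted p = 0.0144, limma over transcripts), so it holds a large part of a sum that is read as Atf6. A NONCODE transcript inside an Atf6 exon, NONMMUT003741.2 (chr1:170704756-170707313), is not in the sum. It averaged 4.60 ± 4.12 FPKM in the control and 17.2 ± 5.70 FPKM in the model group, which did not pass the test (adjusted p = 0.0810, limma over transcripts), and the NONCODE transcripts inside Atf6 exons held 29.8% to 88.8% of the sum when they were added.

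Atf6b encodes ATF6β, a relative of ATF6α with a weaker activation domain (chr17:34647146-34655074, plus strand). Its level was 7.68, 7.15 and 7.78 FPKM in the control livers, 15.2, 12.4 and 13.1 in the model livers, 6.74, 6.51 and 5.92 in the silibinin livers, and 7.62, 7.47 and 7.04 in the phloridzin livers. The model livers were clear of all others, and the silibinin livers were below every control and phloridzin liver. Atf6b rose by 0.77 in the model group (7.54 ± 0.337 to 13.6 ± 1.499 FPKM, SE 0.11, adjusted p = 0.000699, limma). It fell by -0.98 with silibinin (adjusted p = 0.000354, limma) and by -0.79 with phloridzin (adjusted p = 0.00144, limma). None of these passed the fold limit, although silibinin did so without model replicate 2 (-1.04) or silibinin replicate 1 (-1.01). The gap between silibinin and phloridzin, 0.18 on the log2 scale (95% confidence interval -0.06 to 0.43), did not pass the test. Atf6b-201, its main coding transcript, held almost the whole sum, with 7.40 FPKM in the control and 12.96 FPKM in the model group.

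Eif2ak3 encodes PERK, the kinase that slows translation under ER stress (chr6:70844515-70905245, plus strand). Its level was 4.04, 6.59 and 4.49 FPKM in the control livers, 13.7, 16.1 and 15.96 in the model livers, 5.01, 4.90 and 4.76 in the silibinin livers, and 5.89, 5.38 and 5.98 in the phloridzin livers. Every model liver was above every other liver, and control replicate 2 was the highest outside the model group. Eif2ak3 rose from 5.04 ± 1.36 to 15.3 ± 1.31 FPKM in the model group, with a log2 fold change of 1.45 (SE 0.15, adjusted p = 0.000154, limma). It fell with silibinin to 4.89 ± 0.128 FPKM (-1.46, adjusted p = 0.000200, limma) and with phloridzin to 5.75 ± 0.327 FPKM (-1.27, adjusted p = 0.000543, limma). The calls of Eif2ak3 in these 3 comparisons were made under all 23 alternatives tried for each. Silibinin, control and phloridzin followed each other in mean, and the phloridzin livers (5.38 to 5.98 FPKM) were all above the silibinin livers (4.76 to 5.01 FPKM), a gap that did not pass the test in limma.

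The change in Eif2ak3 was seen in its main coding transcript, and its retained introns could be read less firmly. Eif2ak3-201, the more abundant of its 2 coding transcripts, went from 4.20 ± 1.63 to 10.5 ± 1.46 FPKM in the model group and rose by 1.19 (SE 0.21, adjusted p = 0.00750, limma over transcripts). It fell by -1.33 with silibinin and by -1.10 with phloridzin, with adjusted p of 0.00878 and 0.0207. A pair of Eif2ak3 transcripts annotated as retained introns went from 0.223 to 1.56 FPKM (1.07) and from 0.345 to 1.85 FPKM (1.08). With silibinin they averaged 0.344 and 0.402 FPKM, and with phloridzin 0.450 and 0.414 FPKM. Both passed the filter of 0.5 FPKM only through the model livers, so their calls are no further support. Of 25 member transcripts tested, 5 were called higher in model against control livers, where 2415 of all 50485 transcripts were called in either direction. Of the 5, 3 belong to Eif2ak3, and 2 of these are the retained introns that the model livers brought past the filter. In each drug comparison 2 transcripts were called lower, Eif2ak3-201 and the more abundant of the retained introns, where 1027 of all transcripts were called with silibinin and 985 with phloridzin. That retained intron was tested only through the model livers, and its log2 changes of -1.017 with silibinin and -1.0003 with phloridzin lay at the fold limit.

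Creb3l2 encodes BBF2H7, an ATF6 relative known for raising secretory pathway genes in cartilage (chr6:37327255-37442146, minus strand). Its level was 2.39, 1.25 and 2.02 FPKM in the control livers, 6.75, 5.49 and 4.97 in the model livers, 3.13, 3.67 and 2.07 in the silibinin livers, and 2.63, 2.44 and 2.59 in the phloridzin livers. The model livers were all highest, and the phloridzin livers were each above each control liver by a small margin. Creb3l2 rose from 1.89 ± 0.581 to 5.74 ± 0.919 FPKM in the model group (log2 fold change 1.24, SE 0.19, adjusted p = 0.00112, limma). It fell by -0.78 with silibinin (adjusted p = 0.0234, limma) and by -0.91 with phloridzin (adjusted p = 0.0130, limma), neither of them past the fold limit. Under median ratio scaling the silibinin difference of Creb3l2 was -0.60 with an adjusted p of 0.0589 (limma). In limma-voom on the recovered fragments neither drug difference of Creb3l2 passed, with an adjusted p of 0.0699 for silibinin and 0.0586 for phloridzin. Creb3l2-201, the coding transcript, rose by 1.20 in the model group (SE 0.24, adjusted p = 0.0114, limma over transcripts). A NONCODE transcript inside a Creb3l2 exon held 67.9% to 86.2% of the sum when it was added. Creb3l2 was still called in model against control livers with it.

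Creb3l3 encodes CREB3L3 (CREBH), the liver-enriched factor of the family (chr10:81084324-81098874, minus strand). Its level was 111, 105 and 108 FPKM in the control livers, 70.9, 60.9 and 72.03 in the model livers, 91.1, 96.5 and 92.2 in the silibinin livers, and 91.2, 85.7 and 92.6 in the phloridzin livers. It was the only member to go down in the model group, and the drug livers lay between the control and the model livers with no overlap with either. Creb3l3 fell from 108 ± 2.92 to 67.9 ± 6.11 FPKM in the model group, by -0.66 on the log2 scale (SE 0.11, adjusted p = 0.00135, limma). It rose by 0.45 with silibinin (adjusted p = 0.0189, limma) and by 0.40 with phloridzin (adjusted p = 0.0355, limma). With the replicate number as a block, the phloridzin difference no longer passed an adjusted p of 0.05. Creb3l3-201, the coding transcript, averaged 89.5, 55.4, 80.4 and 74.9 FPKM in the control, model, silibinin and phloridzin groups.

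Creb3l1 encodes OASIS, a factor known for collagen genes in bone and in fibroblasts (chr2:91982328-92024502, minus strand). Its level was 0.153, 0.0673 and 0.273 FPKM in the control livers, 0.629, 0.859 and 0.717 in the model livers, 0.371, 0.398 and 0.237 in the silibinin livers, and 0.647, 0.169 and 0.414 in the phloridzin livers. These values rest on 19 to 227 fragments a liver, the fewest of the 10 members, and phloridzin replicate 1 reached into the model range. The model mean was 0.571 FPKM above the control mean (two-sided exact permutation p = 0.1), the silibinin mean was 0.400 below the model mean (a difference of -0.400, exact permutation p = 0.1), and the phloridzin difference from the model was -0.326 FPKM (exact permutation p = 0.2).

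Mbtps1 encodes site-1 protease, which makes the first cut in ATF6 (chr8:119508156-119558735, minus strand). Its level was 12.2, 13.6 and 7.96 FPKM in the control livers, 18.7, 15.2 and 15.5 in the model livers, 17.4, 17.2 and 13.4 in the silibinin livers, and 17.8, 8.83 and 13.7 in the phloridzin livers. The model livers were above the control livers and overlapped with both drug groups. The difference between model and control, 0.54 on the log2 scale (95% confidence interval -0.01 to 1.08, adjusted p = 0.115, limma), did not pass the test. Most of the sum was not coding: Mbtps1-206, annotated as a retained intron, averaged 4.78 FPKM in the control and 7.44 FPKM in the model group, against 0.638 and 0.919 FPKM for the coding Mbtps1-201 and 0.584 and 1.31 FPKM for the other coding transcript.

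Mbtps2 encodes site-2 protease, which makes the cut within the membrane (chrX:157535371-157598715, minus strand). Its level was 2.50, 3.24 and 2.87 FPKM in the control livers, 2.33, 3.27 and 4.37 in the model livers, 4.49, 3.19 and 4.24 in the silibinin livers, and 4.14, 3.12 and 2.22 in the phloridzin livers. All 4 groups overlapped. The difference between model and control was 0.14 on the log2 scale (95% confidence interval -0.34 to 0.61, adjusted p = 0.648, limma).

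**Figure D3:**
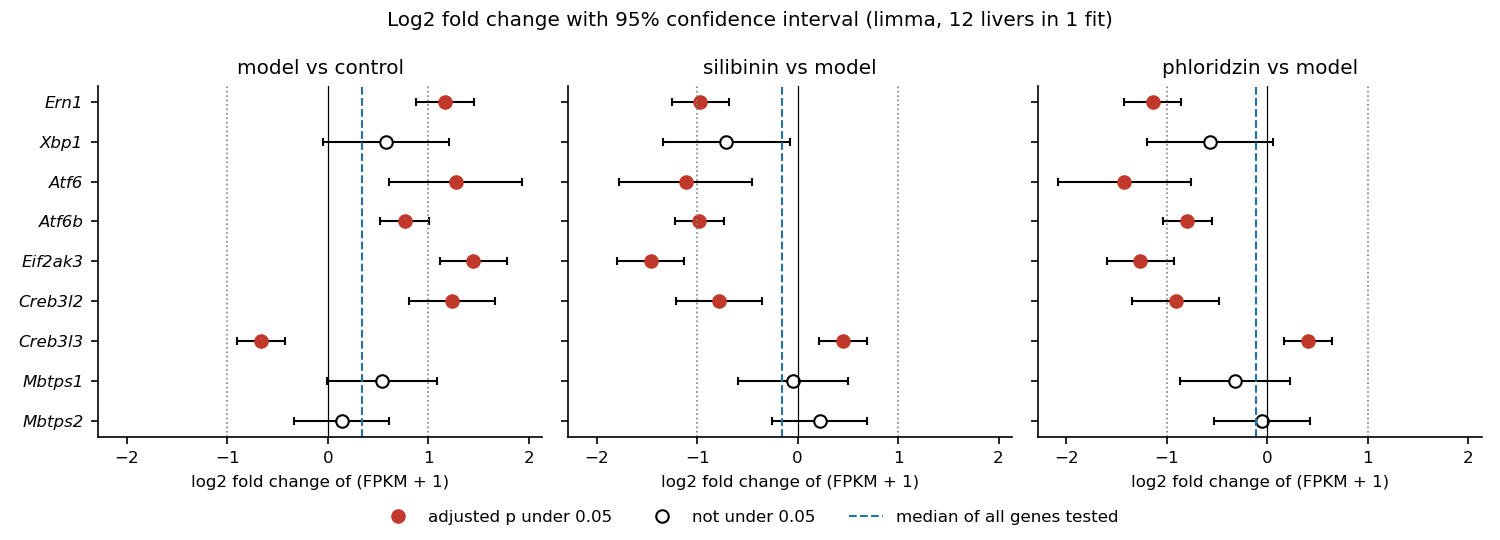
Log2 fold change of (FPKM + 1) with its 95% confidence interval (horizontal axis) for the 9 members tested, in the model group compared with control and in each drug group compared with the model. Filled points have an adjusted p under 0.05, the dashed line is the median of all genes tested and the dotted lines mark 1 and -1. Eif2ak3 shows 1.45, -1.46 and -1.27, and Creb3l3 runs the other way with -0.66, 0.45 and 0.40.

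Phloridzin and silibinin were next compared with each other, at doses that differ by the study's methods. No member differed between the phloridzin and the silibinin group: 0 of 9 passed an adjusted p of 0.05, beside 0.0228% of all genes tested, and 0 of 9 had an unadjusted p under 0.05 in limma, where 494 genes did. Limma-voom on the recovered fragments also gave 0 at an adjusted p under 0.05. The intervals still leave room for differences: the log2 difference of phloridzin from silibinin was -0.31 for Atf6 (95% confidence interval -0.97 to 0.35), 0.14 for Xbp1 (-0.49 to 0.77), 0.20 for Eif2ak3 (-0.14 to 0.53) and -0.18 for Ern1 (-0.46 to 0.11).

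Against the control group, 0 of 9 members passed an adjusted p of 0.05 with silibinin, beside 5.02% of all genes, and 0 of 9 with phloridzin, beside 7.99%. In limma 1 member was under an unadjusted 0.05 in each: Creb3l2 with silibinin (0.46, 95% confidence interval 0.03 to 0.89) and Creb3l3 with phloridzin (-0.26, 95% confidence interval -0.50 to -0.02). Of all 13158 genes tested, 2830 were under that limit with silibinin and 3235 with phloridzin. At an adjusted p under 0.05, limma-voom gave 0 in both. Under median ratio scaling, Creb3l3 was lower with phloridzin than in the control group at an adjusted p of 0.0244 (limma). Eif2ak3 differed from the control by -0.01 with silibinin (95% confidence interval -0.35 to 0.32) and 0.18 with phloridzin (-0.15 to 0.52), which does not show equal levels but bounds the gap well under the model change of 1.45.

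**Figure D4:**
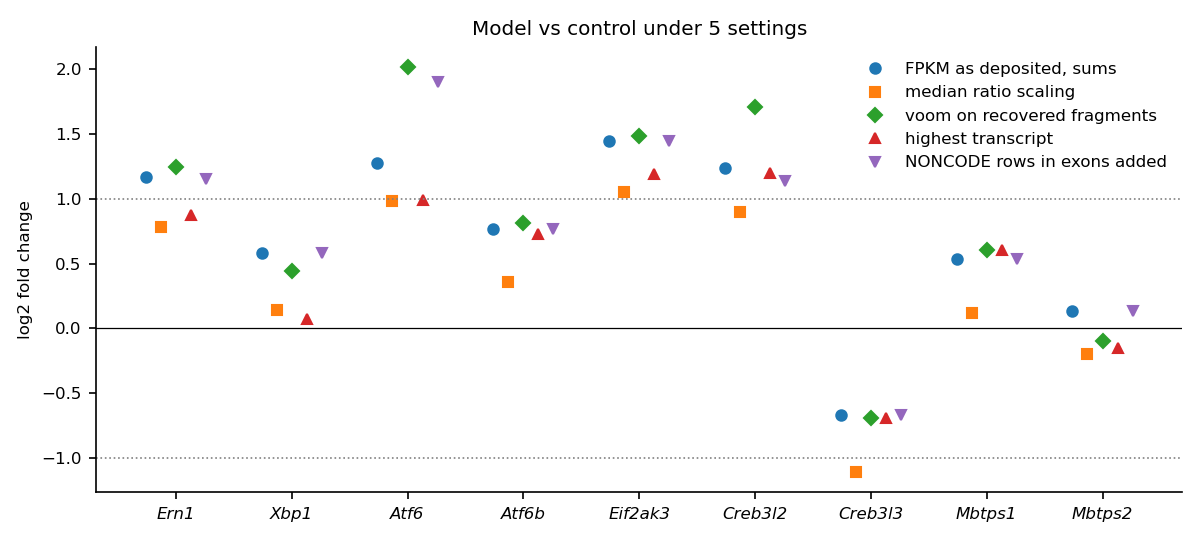
Log2 fold change in model against control livers (vertical axis) for the 9 members tested, under 5 settings: FPKM as deposited, median ratio scaling, limma-voom on recovered fragments, the most abundant transcript in place of the sum, and NONCODE transcripts inside exons added. Median ratio scaling gives 0.78 for Ern1 in place of 1.16, and Atf6 spreads from 0.98 to 2.01.

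The genes whose values over the 12 livers were most like those of a called member were found by the root mean square difference of centred log2(FPKM + 1). For Ern1 they were Cep170b (0.102), Zfp142 (0.106) and Hhipl1 (0.108), against 0.490 for Ern1's own deviation from its mean. For Eif2ak3 they were Ngdn (0.131), Tnfaip6 (0.137) and Itpkc (0.154), against 0.624. For Creb3l2 they were Prkab2 (0.121), Slc30a7 (0.160) and Rbm15b (0.163), against 0.494, and for Atf6 they were Gar1 (0.272), Spty2d1 (0.280) and Pafah1b2 (0.282), against 0.649. Atf6 thus had the loosest nearest neighbours of these 4 members. Ngdn, the closest to Eif2ak3, averaged 5.81, 14.0, 5.39 and 6.43 FPKM in the control, model, silibinin and phloridzin groups. Likeness on this scale is not likeness in FPKM ratio for low genes: Tnfaip6 went from 0.0397 to 2.13 FPKM in the model group and Hhipl1 from 0.117 to 1.62 FPKM, while Eif2ak3 went from 5.04 to 15.3 FPKM. Tnfaip6 and Hhipl1 each averaged under 0.5 FPKM in the control, silibinin and phloridzin groups.

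Promoter sequence was looked at because 5 members rose in the model group, and ATF6, XBP1 and ATF4 have known binding motifs. RefSeq promoters (GRCm38.p6, 250 bases before to 50 after the start) matched 8 of the 10 members, with 9 promoters, and not Atf6 and Creb3l1. On both strands, the ER stress response element ERSE (CCAAT, then 9 bases of any kind, then CCACG) was in 0 of the 9, and in 0.119% of 32851 promoters. ERSE-II (ATTGG, then 1 base of any kind, then CCACG, 0.0365% of all promoters), UPRE (TGACGTGG, 0.676%), CRE (TGACGTCA, 1.79%) and the amino acid response element (TGATGCAA, 0.895%) were in 0 of the 9 too. No match says only that these letters are absent from this window. The shorter CCAAT, part of ERSE, was searched after the data had been seen and was in 4 of the 9 member promoters and 37.4% of all. These 4 belong to Eif2ak3, Creb3l2 and Atf6b, which rose in the model group, and to Creb3l3, which fell. Ern1 rose as well, and its promoter had no CCAAT match. TGACG, the core of UPRE and CRE, was searched in the same way and was in 3 of the 9 and 20.8% of all. The Eif2ak3 promoter held CCAAT 6 times on the 2 strands, which 0.0791% of all promoters reach. That limit of 6 was set by its own count, so the share describes this promoter and tests nothing.

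The 250 bases before the start are shown for the members that rose and had a CCAAT match, and for Hspa5, the chaperone gene that serves as reference for ERSE. They are Eif2ak3 (chr6:70844265-70844514, plus strand), Creb3l2 (chr6:37442149-37442398, minus strand), Atf6b (chr17:34646896-34647145, plus strand) and Hspa5 (chr2:34771840-34772089, plus strand), each written 5′ to 3′ on the strand of its gene. Capitals mark CCAAT and TGACG on either strand, and in Hspa5 the ERSE:
Eif2ak3: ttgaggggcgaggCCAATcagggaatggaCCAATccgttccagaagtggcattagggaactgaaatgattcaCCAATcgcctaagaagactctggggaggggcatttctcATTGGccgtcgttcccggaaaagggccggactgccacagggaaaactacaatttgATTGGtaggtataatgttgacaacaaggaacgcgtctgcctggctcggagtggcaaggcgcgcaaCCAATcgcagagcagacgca
Creb3l2: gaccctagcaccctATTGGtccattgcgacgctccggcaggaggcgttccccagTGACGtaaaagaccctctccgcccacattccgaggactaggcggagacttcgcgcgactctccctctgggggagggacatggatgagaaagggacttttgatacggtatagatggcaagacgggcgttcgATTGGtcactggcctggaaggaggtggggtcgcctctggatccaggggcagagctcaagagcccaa
Atf6b: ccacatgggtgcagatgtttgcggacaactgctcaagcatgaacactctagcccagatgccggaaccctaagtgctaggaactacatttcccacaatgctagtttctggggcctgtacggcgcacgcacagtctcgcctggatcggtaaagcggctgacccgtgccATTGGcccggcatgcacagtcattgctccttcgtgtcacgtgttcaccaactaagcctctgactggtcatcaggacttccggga
Hspa5: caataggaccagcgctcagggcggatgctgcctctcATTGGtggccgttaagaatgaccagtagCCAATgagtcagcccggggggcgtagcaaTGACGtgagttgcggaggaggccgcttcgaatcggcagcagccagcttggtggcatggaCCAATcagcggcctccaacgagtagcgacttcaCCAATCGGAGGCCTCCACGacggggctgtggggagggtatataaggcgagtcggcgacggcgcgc
Of the 23 ATF6 and XBP1 target genes with a promoter in the table, 9 held ERSE (Calr, Canx, Creld2, Derl3, Dnajc3, Hsp90b1, Hspa5, Pdia6 and Syvn1), 2 held ERSE-II and 1 held UPRE. A match is a description of the letters and not a bound site.

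The target genes of the members were followed as lists, which share some genes and so are not independent of each other. Of 26 ATF6 and XBP1 target genes, which make chaperones and ER-associated degradation factors, 14 were called higher in the model group, 20 lower with silibinin and 23 lower with phloridzin, with list medians of 1.07, -1.48 and -1.53. All genes tested gave 9.42%, 3.25% and 2.92% in these comparisons. Under median ratio scaling the counts were 8, 16 and 19, beside 526, 241 and 239 of all 13086 genes. The summed level of the 26 genes was 1203, 1300 and 1328 FPKM in the control livers, 2785, 3304 and 3060 in the model livers, 968, 988 and 871 in the silibinin livers, and 986, 868 and 899 in the phloridzin livers. The drug livers were thus below the control livers as well, and 6 of the 26 genes were lower than in the control group at an adjusted p under 0.05 (limma) in each drug comparison, where 57 of all 13158 genes were lower with silibinin and 63 with phloridzin. Under median ratio scaling it was 10 of the 26 with silibinin and 14 with phloridzin, where 154 and 218 of all 13086 genes tested were lower. Hspa5 (BiP), the chaperone that holds the sensors inactive, averaged 144, 510, 78.5 and 78.8 FPKM in the control, model, silibinin and phloridzin groups. The largest changes in the model group were in Syvn1 (2.79), Creld2 (2.28), Hyou1 (2.14) and Derl3 (2.09). With silibinin they were in Creld2 (-3.59), Syvn1 (-3.02), Manf (-2.78) and Calr (-2.71), and with phloridzin in Creld2 (-3.29), Syvn1 (-2.97), Sdf2l1 (-2.83) and Manf (-2.77).

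Of 15 genes of the PERK branch, 13 were tested, of which 8 were called higher in the model group and 9 lower with each drug, with medians of 1.37, -1.43 and -1.4998 (6, 7 and 8 called under median ratio scaling). Beside them, 9.42%, 3.25% and 2.92% of all genes were called in these directions, and 526, 241 and 239 of 13086 under the scaling. The sum of the 15 PERK branch genes was 191, 183 and 170 FPKM in the control livers, 414, 515 and 458 in the model livers, 157, 149 and 157 in the silibinin livers, and 155, 156 and 161 in the phloridzin livers. Atf3 went from 0.306 to 45.2 FPKM in the model group (5.14), Ddit3, which encodes CHOP, from 0.988 to 25.9 ± 19.2 FPKM (3.32), Trib3 from 5.27 to 60.3 FPKM (3.27) and Nupr1 from 0.191 to 6.05 FPKM (2.46). With silibinin these fell by -4.05, -3.21, -3.53 and -2.21, and with phloridzin by -3.95, -3.06, -3.32 and -1.92. Nupr1 averaged 0.417 FPKM with silibinin and 0.740 FPKM with phloridzin. Over the control, silibinin and phloridzin livers its mean was under the filter on low values. Nupr1 was thus tested only through the model livers, and its calls, which are in the counts above, are no further support.

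**Figure D5:**
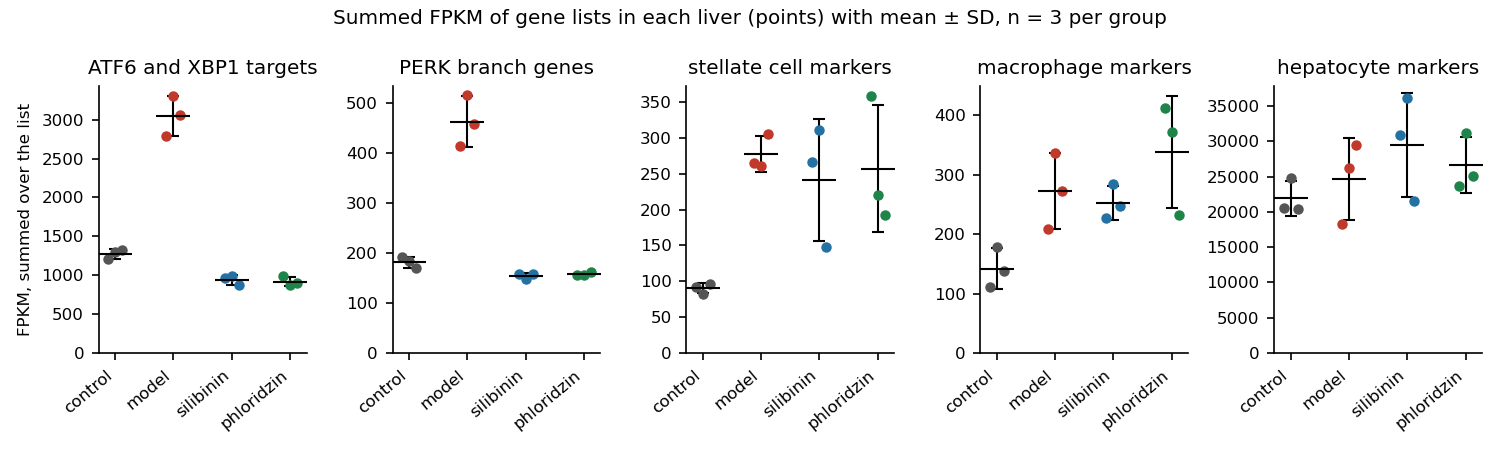
FPKM summed over a list (vertical axis) in each liver (points), with mean and SD bars, for the ATF6 and XBP1 targets, the PERK branch, and markers of stellate cells, macrophages and hepatocytes, in 4 groups of 3 livers. The target and PERK sums of the model livers (2785 to 3304 and 414 to 515 FPKM) are above all others, while the stellate cell and macrophage sums of the drug livers reach into the model range.

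Other lists moved less evenly. Beside them, 9.42% of all genes were called higher in the model group, 3.25% lower with silibinin and 2.92% lower with phloridzin. Under median ratio scaling it was 526, 241 and 239 of 13086 genes, with 453 lower in the model group. Of 17 cofactors of the sensors and of ATF6 processing, 4 were called higher in the model group (Hspa5, Dnajb9, Sec61a1 and Pdia6, the last not under median ratio scaling), of which Hspa5, Dnajb9 and Pdia6 are also among the ATF6 and XBP1 targets, 4 lower with silibinin and 5 lower with phloridzin. Of 6 relatives of the members, 4 were tested and 0 passed an adjusted p of 0.05 in limma in any of the 3 comparisons, while under median ratio scaling 1 was higher with silibinin than in the model group. Of 7 substrates of IRE1-dependent decay, 1 (Sparc, 2.08) was called, as higher in the model group, a count near the share of all genes. Of 10 CREB3L3 targets, 3 were called higher in the model group, Fgf21 (3.28), Cidec (1.56) and Hamp (1.18), and the list median was -0.09. With silibinin 3 were called lower, and with phloridzin 2. Under median ratio scaling 2 were called higher in the model group, without Hamp, and 2 lower. With phloridzin under that scaling 1 was called higher and 2 lower, and with silibinin 3 lower. Of 5 CREB3L1 and CREB3L2 targets, Col1a1 (4.35) and Col1a2 (1.52) were called higher in the model group, and with phloridzin 1, Sec24d (-1.31), was called lower. Of 12 SREBP pathway genes, whose factors are cut by the same proteases, 7 were called higher in the model group, led by Scd1 (3.84), Fasn (1.89), Sqle (1.73) and Fdps (1.65), and 2 lower with each drug. Under median ratio scaling 3 of these SREBP genes were called higher in the model group, without Sqle, and 1 lower with each drug.

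Markers of other cells changed in the same livers. In whole liver, fewer cells of a type and less RNA per cell cannot be told apart. Of 11 stellate cell and myofibroblast markers, 9 rose in the model group at an adjusted p under 0.05 (limma) and 6 were called, Col1a1 going from 1.40 to 48.5 FPKM. Their sum was 92.5, 82.8 and 95.9 FPKM in the control livers, 264, 261 and 306 in the model livers, 266, 311 and 147 in the silibinin livers, and 358, 221 and 192 in the phloridzin livers, with Dcn most abundant and Timp1 at 0 in 1 liver. In the drug groups compared with the model group, 0 of the 11 were called. At an adjusted p under 0.05, 0 were lower with silibinin and 1 with phloridzin. Of all genes, 3.25% were called lower with silibinin and 2.92% with phloridzin. At an adjusted p under 0.05 alone, 11.4% and 10.4% were lower, so the marker counts lay near these shares. In model against control livers, 31.1% of all genes were higher at that limit and 9.42% were called. Under median ratio scaling 6 of the 11 markers passed it and 6 were called, beside 1727 and 526 of all 13086 genes.

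Of 10 Kupffer cell and macrophage markers, 3 were called higher in the model group, beside 9.42% of all genes (Gpnmb 4.73, Trem2 2.78 and Ccr2 1.35). Their sum was 110, 178 and 138 FPKM in the control livers, 209, 337 and 272 in the model livers, 227, 284 and 247 in the silibinin livers, and 412, 371 and 231 in the phloridzin livers, with Cd5l most abundant. Of 6 cholangiocyte markers 3 were tested and 1, Spp1 (1.94), was called higher in the model group. Of 8 lymphocyte and plasma cell markers 6 were tested and 1, Jchain (1.81), was called higher in that group. Spp1 and Jchain were each the most abundant of their list. Of 8 sinusoidal endothelial markers 0 were called. Of 4 neutrophil markers 3 were tested and 0 were called, with 1 higher in the model group at an adjusted p under 0.05 (limma), S100a8 was the most abundant, and S100a9 was at 0 in 7 livers. Of 9 hepatocyte markers tested, 1 was called, Cyp2e1, which fell from 2812 to 504 FPKM (-2.35). Of all 13158 genes, 142 were called lower in the model group. The part of cell composition in the changes of the members was not tested.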

How the data were processed

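Liver RNA of 12 samples was sequenced on an Illumina NovaSeq by the paper, and the samples were grouped by GEO's labels into 4 groups of 3. The values were deposited by the authors as FPKM per transcript, and no counts were used. The submitters' processing notes name bcl2fastq, FastQC 0.11.5, HISAT2 2.1.0, StringTie 1.3.3b and mm10, and the submitters list DESeq 1.28.0 as well, which was not run here. Transcripts with a gene symbol (82136) were summed per symbol, while 87294 without one were left out. Genes with a mean of at least 0.5 FPKM were tested in 6 comparisons with limma 3.58.1 (R 4.3.3, trend in the variance, data.table version 1.17.8) on log2(FPKM + 1), and this fit was tested on simulated data. Adjustment was by Benjamini-Hochberg, and calls needed an adjusted p under 0.05 and a log2 fold change beyond 1. Shares and Creb3l1 were compared by two-sided exact permutation tests (Python 3.11.15, numpy 2.4.6, pandas 2.3.3, scipy 1.17.1), and figures were drawn with matplotlib 3.10.9. Depth came from FPKM steps of transcripts of at least 1500 bases, within 0.05 of a whole fragment. Alternatives were the pseudocount, the filter, the fold limit, the scaling, the transcripts summed, voom, the groups in the fit, a replicate block and each liver left out. NONCODE transcripts inside exons, the letters CCAAT and TGACG, and alternatives for transcripts and for Creb3l1 were added after seeing the data. Named were all members and, of each other list, up to 4 called genes with the largest change in each main comparison, and the 3 genes most like each called member. The members and the lists (relatives, cofactors, ATF6 and XBP1 targets, PERK branch, decay substrates, CREB3L3 targets, CREB3L1 and CREB3L2 targets, SREBP pathway and cell type markers) were chosen with earlier results of these data known.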

Additional observations from a re-analysis of the deposited data

Results flagged for a closer look

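A pair of NONCODE transcripts, which carry no gene symbol and so are in none of the main sums, differed between the model and the control group above the fold limit. NONMMUT056402.2 lies inside an exon of Creb3l2 on its strand (chr6:37327381-37331285) and had 5.58, 7.82 and 6.16 FPKM in the control livers and 15.3, 15.2 and 11.6 FPKM in the model livers. Its log2 fold change was 1.00 (SE 0.18, adjusted p = 0.00805, limma over 50485 transcripts), and the Creb3l2 sum changed by 1.24. NONMMUT003744.2 lies within an intron of Atf6 on its strand (chr1:170765765-170767101) and had 0.740, 0.366 and 0.184 FPKM in the control livers and 3.37, 1.76 and 1.37 FPKM in the model livers. Its log2 fold change was 1.11 (SE 0.23, adjusted p = 0.0125, limma over transcripts). Whether these values come from the genes they lie in was not tested.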

How the results depend on the processing

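The members called in model against control livers numbered 4, and 2 with the most abundant transcript in place of the sum or with median ratio scaling, 3 with protein-coding transcripts or voom and 6 without the fold limit. With silibinin compared with the model, 2 were called, and 1 without the filter on low values, with only the groups compared in the fit, with protein-coding transcripts, with the most abundant transcript, with median ratio scaling, or with NONCODE transcripts inside exons added (chosen after seeing the data), while 3 were called with a pseudocount of 0.1 or voom (Ern1, Atf6b and Eif2ak3) and 6 passed without the fold limit. With phloridzin compared with the model, 3 were called, 6 without the fold limit, 4 with a pseudocount of 0.1, 2 with median ratio scaling (Ern1 lost), 2 with protein-coding transcripts or voom (Atf6 lost in both) and 1 with the most abundant transcript. Leaving out each liver in turn gave 3 to 4, 1 to 3 (1 without silibinin replicate 3) and 3 to 3. In the other comparisons 0 were called under every setting run with limma. Of the member transcripts, 5 were called higher in the model group, 3 with a mean of at least 1 FPKM, and 3 to 6 with a liver left out (3 without control replicate 2 or model replicate 1). The Xbp1-201 share difference in the model group ranged from -15.0 to -9.94 points with a liver left out, and the Creb3l1 difference from 0.509 to 0.625 FPKM. Over 1242 alternative log2 fold changes of members, 0 reversed a call, 25 lost one, 19 gained one and 33 changed sign while uncalled. With the replicate number as a replicate block, 4, 2 and 3 members were called in the 3 comparisons. Same-numbered livers correlated at -0.0909 to 0.101 over 18 pairs, 1 of them over 0.1, and 2 of 12 livers correlated best with their own number, so the numbers do not pair the livers. The cause of these changes was not tested. The values are RNA levels of whole liver, so cleavage of ATF6, phosphorylation of IRE1α and PERK, and splicing of Xbp1 were not measured. With 3 livers a group, an exact test cannot go under 0.1. Depth limits Creb3l1 most, at 19 to 227 fragments a liver. Doses and vehicle are not in the labels, and silibinin and phloridzin were each given at 1 dose in these livers.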
